A study of Mus musculus with 36 samples.

Results

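The Th2 activation programme of cells lacking AGO1, AGO3 and AGO4 was described from 8 of the 36 small RNA libraries of the series, chosen by their titles. They are 4 libraries of Th2 cells on day 7 of culture and 4 libraries of naive cells, all from AGO134-/- C57BL/6J mice. The starting cells were naive CD4 T cells of the spleen, purified on beads and sorted as CD4+ TCRb+ cells. The day 7 cells were activated and polarised towards T helper 2 (Th2) cells in vitro. WT littermates were sampled in the same way, with 4 day 7 and 4 naive libraries. Day 14 libraries, 3 of each genotype, complete the 22 libraries of the experiment. The labels name no promoter or Cre for the AGO1/3/4 deletion, and AGO2 is not among the proteins they name as lost. The files hold no Ago mRNA, so the genotype was not checked. Nor do the labels say that replicates are separate animals, so p-values may reflect technical spread alone.

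MicroRNAs (miRNAs) are short RNAs cut from hairpin precursors. Each hairpin gives a 5p and a 3p strand, and the strand kept by an Argonaute (AGO) protein, the guide, steers it to mRNAs that pair with the miRNA's seed, bases 2 to 8. miRNAs with the same seed form a family and can reach shared targets. In naive T cells let-7, miR-150, miR-26 and miR-181 are abundant, and activated T cells are known to induce miR-21, miR-17-92 and miR-183-96-182.

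The sequences of miRNAs on which the results turn are given here from RefSeq (GRCm38.p6), 5′ to 3′, with the seed in capitals. The first set gained most among abundant miRNAs or belongs to families that rose together.
miR-183-5p: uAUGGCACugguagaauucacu
miR-96-5p: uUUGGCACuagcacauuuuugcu
miR-182-5p: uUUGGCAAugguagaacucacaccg
miR-21a-5p: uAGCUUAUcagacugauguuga
miR-210-3p: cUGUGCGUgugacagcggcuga
miR-148a-3p: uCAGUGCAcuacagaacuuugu
miR-148b-3p: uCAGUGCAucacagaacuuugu
miR-152-3p: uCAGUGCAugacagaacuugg
miR-130b-3p: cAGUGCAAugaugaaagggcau
miR-301a-3p: cAGUGCAAuaguauugucaaagc
miR-27a-3p: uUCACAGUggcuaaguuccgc
miR-24-2-5p: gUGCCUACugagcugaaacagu
miR-24-1-5p: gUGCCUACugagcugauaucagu
The second set fell. The 4 guide strands of the miR-181 family share a seed, and the passenger strands of the miR-181a hairpins differ, which tells the loci apart.
miR-181a-5p: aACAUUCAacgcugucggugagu
miR-181b-5p: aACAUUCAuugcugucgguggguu
miR-181c-5p: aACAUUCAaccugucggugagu
miR-181d-5p: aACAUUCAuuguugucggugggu
miR-181a-1-3p: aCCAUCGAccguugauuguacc
miR-181a-2-3p: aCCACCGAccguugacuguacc
miR-211-5p: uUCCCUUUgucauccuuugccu
miR-200b-3p: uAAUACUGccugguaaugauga
let-7a-5p: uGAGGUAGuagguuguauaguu
let-7b-5p: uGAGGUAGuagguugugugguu
let-7c-5p: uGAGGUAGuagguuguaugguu
let-7f-5p: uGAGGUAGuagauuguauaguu
The third set holds miRNAs that share a seed and moved in opposite directions.
miR-351-5p: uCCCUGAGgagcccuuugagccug
miR-125a-5p: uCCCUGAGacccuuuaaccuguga
miR-125b-5p: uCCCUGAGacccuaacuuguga
miR-30c-5p: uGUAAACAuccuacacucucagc
miR-30a-5p: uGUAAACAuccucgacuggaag
miR-30e-5p: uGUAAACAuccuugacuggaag
miR-99b-5p: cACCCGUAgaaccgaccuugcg
miR-99a-5p: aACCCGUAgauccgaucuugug

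The day 7 libraries held 125803 to 190976 miRNA counts, and the naive libraries 64264 to 195122. A miRNA with counts in the library was seen for 530 to 628 names at day 7 and for 386 to 564 names in naive cells. Library 4 of the naive group was the shallowest and stood apart: the chi-square statistic per degree of freedom was 19.1 to 30.1 in its pairs with the other naive libraries, and 2.89 to 5.52 in the other pairs. Library 4 at day 7 stood apart less, with 9.52 to 12.7 in its pairs and 4.48 to 4.81 in the others. All 12 miRNAs fixed as core T cell markers had counts in all 8 libraries. miR-223-3p, the marker of myeloid cells, had no count in any day 7 library, which allows 16.3 to 26.7 CPM (counts scaled to TMM-adjusted library size, the level used throughout). It reached at most 28.4 CPM in naive cells. Of the 4 markers of red cells and platelets, 2 had counts, summing to 81.9 to 132 CPM at day 7 and 248 to 562 CPM in naive cells. The 8 markers of endothelial and stromal cells summed to 681 to 1010 CPM at day 7 and 135 to 581 CPM in naive cells. The 12 markers of epithelial, liver and muscle cells summed to 8871 to 9696 CPM at day 7 and 4849 to 7505 CPM in naive cells. In these bulk samples, fewer cells of a type and less RNA per cell cannot be told apart.

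Th2 culture changed most of the miRNAs that could be tested. Of 382 tested miRNAs, 283 were called at an edgeR adjusted p under 0.05 (74.1%). Of these, 152 rose (39.8% of those tested) and 131 fell (34.3%). A change of at least 2-fold was called for 212 (55.5%), of which 127 rose (33.2%) and 85 fell (22.3%). The 4 day 7 and the 4 naive libraries did not overlap for 232 miRNAs (60.7%). Without both libraries numbered 4, 277 of 381 miRNAs were called. Each level is relative to the other miRNAs of its library after TMM scaling, and the scaling sets the balance of higher and lower calls. It is not a plain share of counts: in naive library 4, 3 counts are 67.7 CPM, but 46.7 CPM by plain library size. Scaling instead to the 9 entries named STD, whose nature the labels do not give, raised the median log2 fold change of all tested miRNAs to 0.80, against 0.08 with the main scaling, and gave 205 higher and 59 lower calls. The members of 20 families and clusters are shown in the plot of changes by family. Each count of members that rose or fell, here and below, is to be read beside the 39.8% and 34.3% of all tested miRNAs.

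**Figure D1:**
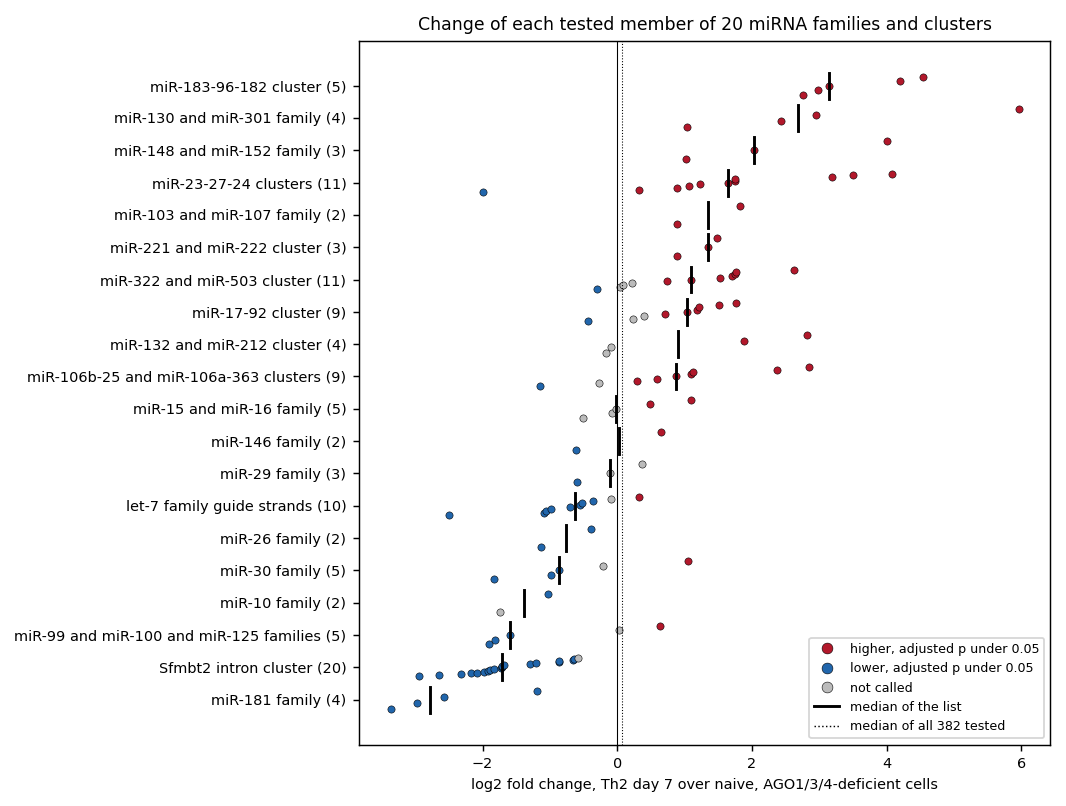
Log2 fold change of each tested member of 20 miRNA families and clusters in AGO1/3/4-deficient cells, Th2 day 7 over naive (horizontal axis), with the number of tested members in brackets. Red and blue points were called higher and lower at an adjusted p under 0.05, grey points were not called, black bars are list medians, and the dotted line is the median of all 382 tested miRNAs (0.08). Of the list medians, that of the miR-183-96-182 cluster lies furthest right, at 3.15, and that of the miR-181 family furthest left, at -2.78.

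The miR-183-96-182 cluster, known to be induced by T cell activation, rose in all 5 of its tested members, by a median log2 fold change of 3.15. The hairpins lie within a short stretch of chromosome 6 on the minus strand (miR-183 at chr6:30169668-30169737, miR-182 at chr6:30165918-30165992), with no host gene found on that strand. miR-183-5p stood at 19256, 26947, 22929.7 and 18311 CPM at day 7, against 955, 782, 1039 and 992 CPM in naive cells (log2 fold change 4.54, SE 0.15 and edgeR adjusted p = 3.15e-20). The lowest day 7 library lay far above the highest naive library. miR-182-5p, which acts on Foxo1 in activated T cells, stood at 28976, 31234, 32074 and 33410.5 CPM at day 7, against 3993, 3623, 4757 and 3541 CPM in naive cells (log2 fold change 2.97, SE 0.13 and edgeR adjusted p = 4.95e-18). miR-96-5p stood at 1403, 1035, 1186 and 1513 CPM at day 7, against 127, 132, 187 and 90.2 CPM in naive cells (log2 fold change 3.15, SE 0.24 and edgeR adjusted p = 1.65e-12). All 3 guide strands were separated between the groups in every library. The passenger strand miR-183-3p rose by 4.20 ± 0.42 (log2 fold change ± SE, edgeR adjusted p = 5.87e-10). miR-96-3p had 20 counts at day 7 and 2 in naive cells, a ratio of 7.53 with an exact 95% counting interval of 1.83 to 66.4. Its fitted log2 fold change was 2.76, and 5.75 without naive library 3.

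Among single miRNAs, miR-21a and miR-210 showed large increases. miR-21a-5p, an abundant miRNA of activated lymphocytes cut from an exon of Vmp1 (chr11:86584067-86584158, minus strand), stood at 33228, 34849.5, 38236 and 45511 CPM at day 7, against 8853, 10507, 10644 and 8481 CPM in naive cells (log2 fold change 1.98, SE 0.13 and edgeR adjusted p = 8.17e-14). Its passenger strand miR-21a-3p stood at 769.6, 1203, 967 and 899 CPM at day 7, against 47.7, 26.3, 73.8 and 22.6 CPM in naive cells (log2 fold change 4.32, SE 0.36 and edgeR adjusted p = 9.87e-12). The hairpin's strands thus rose together, the less abundant by more. miR-210-3p, known as a hypoxia-induced miRNA, stood at 3804, 2894, 4295 and 7074 CPM at day 7, against 39.8, 32.9, 79.5 and 248 CPM in naive cells (log2 fold change 5.94, SE 0.40 and edgeR adjusted p = 1.08e-13). Its highest day 7 level and its highest naive level were both in library 4 of the group. miR-34a-5p, a target of p53, stood at 213, 92.1, 203 and 151 CPM at day 7, against 0, 13.2, 5.68 and 22.6 CPM in naive cells (log2 fold change 4.27, SE 0.61 and edgeR adjusted p = 3.75e-07). Its naive level rested on 4 counts over the group.

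The family of miR-148 and miR-152, with 3 tested members, and that of miR-130 and miR-301, with 4, rose in every one of them. miR-148a-3p (chr6:51269812-51269910) stood at 6877, 6894, 8815 and 8462 CPM at day 7, against 1710.2, 2169.8, 2151 and 1489 CPM in naive cells (log2 fold change 2.02, SE 0.14 and edgeR adjusted p = 2.83e-13). miR-148b-3p, from an intron of Copz1, stood at 5098, 5549.9, 6256 and 5819 CPM at day 7, against 3055, 2768, 3332 and 1917 CPM in naive cells (log2 fold change 1.01, SE 0.13 and edgeR adjusted p = 1.17e-07). The groups did not overlap for either. miR-152-3p had 48 counts at day 7 and 2 in naive cells, a ratio of 18.1 with an exact 95% counting interval of 4.73 to 153. Its fitted log2 fold change was 4.01, and 4.72 without naive library 4. Of the miR-130 and miR-301 family, miR-130b-3p was the most abundant, at 5993, 5523, 6234 and 6699.9 CPM at day 7, against 3047, 2992, 3117 and 2662 CPM in naive cells (log2 fold change 1.04, SE 0.10 and edgeR adjusted p = 5.39e-10). miR-301a-3p, from an intron of Ska2, stood at 851, 737, 1044 and 561 CPM at day 7, against 95.5, 125, 96.5 and 90.2 CPM in naive cells (log2 fold change 2.95, SE 0.22 and edgeR adjusted p = 1.04e-12). miR-130a-3p rose by 2.42 ± 0.42 (log2 fold change ± SE, edgeR adjusted p = 9.94e-06), and by 1.84 with loess offsets. miR-301b-3p had 272 counts at day 7 and 3 in naive cells, a ratio of 68.2 with an exact 95% counting interval of 23.1 to 333. Its fitted log2 fold change was 5.96, and 6.86 without naive library 2. Both members of the miR-103 and miR-107 family, which lie in introns of Pank genes, also rose: miR-103-3p by 0.88 ± 0.12 and miR-107-3p by 1.83 ± 0.16 (log2 fold change ± SE, edgeR adjusted p = 2.76e-07 and 2.82e-11).

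The miR-23-27-24 clusters, of which miR-24 and miR-27 restrain Th2 cytokine responses in mouse T cells, rose in 10 of 11 tested strands, by a median of 1.64. miR-23a-3p stood at 11254, 11674, 11742 and 12786 CPM at day 7, against 3436, 3583, 3832 and 4421 CPM in naive cells (log2 fold change 1.64, SE 0.11 and edgeR adjusted p = 5.17e-14). miR-27a-3p stood at 9388, 8677, 9265 and 12403 CPM at day 7, against 3118, 2808, 3099 and 2707 CPM in naive cells (log2 fold change 1.75, SE 0.12 and edgeR adjusted p = 1.49e-13). miR-24-3p, which both clusters encode, stood at 16412, 15289, 16559 and 17839.7 CPM at day 7, against 7231, 7535, 8152 and 4962 CPM in naive cells (log2 fold change 1.23, SE 0.12 and edgeR adjusted p = 4.53e-10). For each of these the lowest day 7 library was above the highest naive library. The copies on chromosome 13 changed less: miR-23b-3p rose by 0.88 ± 0.12 and miR-27b-3p by 0.32 ± 0.11 (log2 fold change ± SE, edgeR adjusted p = 1.51e-07 and 0.0117). Whether the copies differ was not tested. The call of miR-27b-3p ended without day 7 library 1, without naive library 1 or without naive library 2. It also ended with DESeq2, with DESeq2 size factors in edgeR and with only the compared groups fitted. The miR-24 hairpins have passenger strands of their own, printed above. miR-24-2-5p (chr8:84208815-84208921) stood at 442, 526, 604 and 507 CPM at day 7, against 39.8, 32.9, 22.7 and 22.6 CPM in naive cells (log2 fold change 4.08, SE 0.27 and edgeR adjusted p = 6.23e-14). miR-24-1-5p (chr13:63301208-63301275) stood at 65.5, 119, 65.9 and 53.4 CPM at day 7, against 0, 13.2, 5.68 and 22.6 CPM in naive cells (log2 fold change 3.19, SE 0.52 and edgeR adjusted p = 3.59e-06). Both loci's strands were thus higher in every day 7 library. miR-23a-5p and miR-27a-5p rose by 1.75 ± 0.33 and 3.49 ± 0.44 (log2 fold change ± SE, edgeR adjusted p = 3.21e-05 and 5.29e-08), and miR-27a-5p by 4.12 without naive library 2. The exception was miR-23b-5p, at 6 counts at day 7 and 19 in naive cells (log2 fold change -1.9997, SE 0.67 and edgeR adjusted p = 0.00884). Its call was lost under scaling to the STD entries, at -1.29.

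The miR-17-92 cluster of oncogenic, growth-linked miRNAs, and its paralogs, moved more unevenly. Of 9 tested strands of miR-17-92, 6 rose and 1 fell, with a median of 1.03. miR-18a-5p stood at 2958, 2883, 2834 and 3381 CPM at day 7, against 859, 914, 886 and 879.6 CPM in naive cells (log2 fold change 1.76, SE 0.13 and edgeR adjusted p = 9.66e-13). miR-17-5p stood at 1315, 981, 1291 and 1779.5 CPM at day 7, against 628, 592, 698 and 293 CPM in naive cells (log2 fold change 1.19, SE 0.25 and edgeR adjusted p = 9.91e-05). miR-19b-3p stood at 2069, 2222, 2466 and 1922 CPM at day 7, against 883, 723, 886 and 451 CPM in naive cells (log2 fold change 1.51, SE 0.21 and edgeR adjusted p = 3.01e-07). miR-19a-3p, miR-20a-5p and miR-17-3p rose by 1.22 ± 0.32, 1.03 ± 0.18 and 0.70 ± 0.12 (log2 fold change ± SE, edgeR adjusted p = 0.00107, 1.34e-05 and 7.35e-06). miR-92a-3p stood at 4279, 2965, 3131 and 5392 CPM at day 7, against 2148, 1887, 1629 and 8594 CPM in naive cells (log2 fold change 0.23, SE 0.33 and edgeR adjusted p = 0.549). Naive library 4 alone was above the day 7 libraries, and without it the change was 1.05 and called. Without naive library 1, 2 or 3 it was -0.032, -0.053 and -0.026, and with loess offsets -0.012, none of them called. Of 9 tested strands of the miR-106b-25 and miR-106a-363 clusters, 7 rose and 1 fell. miR-363-3p, of the X-linked cluster, stood at 17214, 15105, 16021 and 17457 CPM at day 7, against 3150.0, 2926, 3860.2 and 2707 CPM in naive cells (log2 fold change 2.37, SE 0.12 and edgeR adjusted p = 2.45e-16). miR-18b-5p, of the same cluster, stood at 317, 304, 401 and 320.3 CPM at day 7, against 15.9, 46.0, 62.4 and 67.7 CPM in naive cells (log2 fold change 2.85, SE 0.31 and edgeR adjusted p = 2.13e-09). miR-106a-5p rose by 0.87 ± 0.26, and of the cluster in Mcm7 miR-106b-5p rose by 1.10 ± 0.19 and miR-106b-3p by 1.12 ± 0.11 (log2 fold change ± SE, edgeR adjusted p = 0.00393, 8.79e-06 and 5.27e-10). miR-25-3p, the most abundant strand of these clusters, was not called, at 31591, 32600.3, 32200.4 and 37432 CPM at day 7, against 39001, 32750.5, 34935 and 55305 CPM in naive cells. Its passenger strand miR-25-5p fell, at -1.15 ± 0.22 (log2 fold change ± SE, edgeR adjusted p = 3.44e-05), a call lost under scaling to the STD entries, at -0.40.

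In the X-linked cluster of miR-322 and miR-503, which are known to slow the cell cycle, 7 of 11 tested strands rose and 1 fell, with a median of 1.09. miR-351-5p stood at 2402, 2661, 2763 and 3168 CPM at day 7, against 875, 776, 817 and 744 CPM in naive cells (log2 fold change 1.76, SE 0.14 and edgeR adjusted p = 2.32e-12). miR-503-5p stood at 775, 873, 978 and 899 CPM at day 7, against 334, 309, 352 and 135 CPM in naive cells (log2 fold change 1.53, SE 0.19 and edgeR adjusted p = 4.27e-08). miR-322-5p stood at 557, 575, 593 and 543 CPM at day 7, against 247, 289, 267 and 248 CPM in naive cells (log2 fold change 1.09, SE 0.16 and edgeR adjusted p = 8.69e-07). The groups were separate for all 3. miR-450b-5p, miR-322-3p, miR-351-3p and miR-542-5p rose by 2.63 ± 0.34, 1.75 ± 0.27, 1.70 ± 0.41 and 0.73 ± 0.20 (log2 fold change ± SE, edgeR adjusted p = 6.49e-08, 1.90e-06, 0.000537 and 0.00143).

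The clusters of miR-132 with miR-212 and of miR-221 with miR-222 are known to be induced by activation. Both strands of miR-212 rose: miR-212-5p stood at 977, 1518, 1686 and 1762 CPM at day 7, against 453, 401, 448 and 203 CPM in naive cells (log2 fold change 1.89, SE 0.21 and edgeR adjusted p = 3.42e-09), and miR-212-3p rose by 2.81 ± 0.31 (log2 fold change ± SE, edgeR adjusted p = 4.52e-09). miR-132-3p, encoded beside it on chromosome 11, was not called, at 911, 927, 934 and 1824 CPM at day 7, against 1145, 1203, 1646 and 1038 CPM in naive cells. Its day 7 library 4 stood above the other 3, and miR-132-5p was not called either, at 289 to 623 CPM at day 7 and 388 to 465 CPM in naive cells. All 3 tested strands of miR-221 and miR-222 rose: miR-221-3p by 0.89 ± 0.21, miR-222-3p by 1.34 ± 0.22 and miR-221-5p by 1.48 ± 0.40 (log2 fold change ± SE, edgeR adjusted p = 0.000497, 4.22e-06 and 0.00156). With loess offsets miR-221-5p lost its call, at 0.88.

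**Figure D2:**
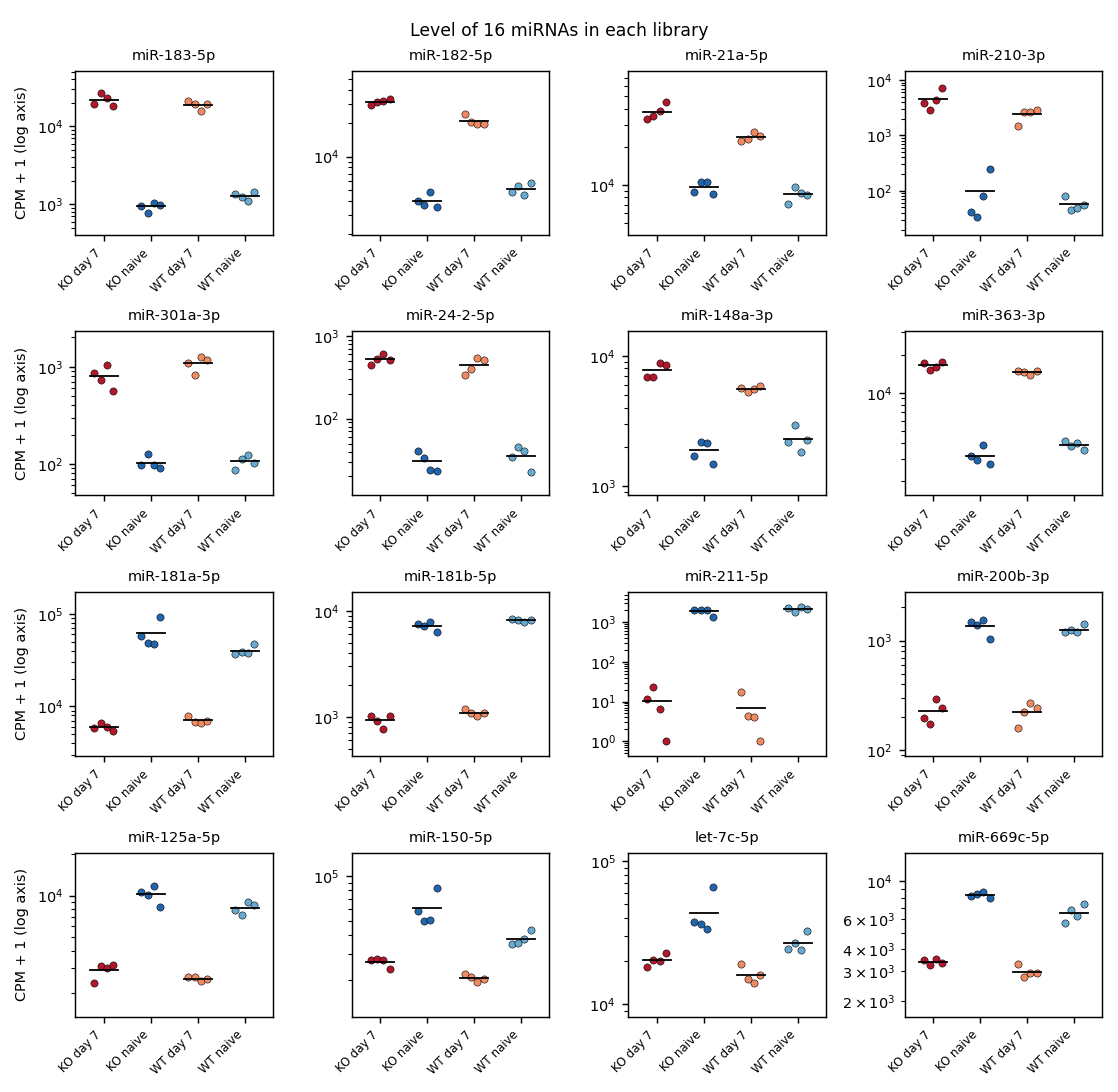
Level of 16 miRNAs in each library (CPM + 1, log axis), with AGO1/3/4-deficient (KO) day 7 and naive libraries on the left and WT day 7 and naive libraries on the right of each panel, 4 each, and lines at group means. In KO cells miR-183-5p stood at 18311 to 26947 CPM at day 7 against 782 to 1039 CPM in naive cells, and miR-211-5p at 0 to 21.7 CPM against 1376 to 2104 CPM.

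The miR-181 family, which tunes T cell receptor sensitivity, fell in all 4 guide strands, by a median of -2.78. miR-181a-5p stood at 5916, 6601, 5986 and 5392 CPM at day 7, against 57574, 48222, 47724 and 93581 CPM in naive cells (log2 fold change -3.37, SE 0.17 and edgeR adjusted p = 2.45e-16). Its naive level was highest in library 4, and the groups were far apart. miR-181b-5p stood at 1026, 905, 769 and 1014 CPM at day 7, against 7612, 7219, 7919 and 6383 CPM in naive cells (log2 fold change -2.98, SE 0.13 and edgeR adjusted p = 4.95e-18). miR-181c-5p stood at 426, 449.8, 450.4 and 418 CPM at day 7, against 2728, 2696, 3395 and 1421 CPM in naive cells (log2 fold change -2.58, SE 0.19 and edgeR adjusted p = 4.51e-13). miR-181d-5p stood at 737, 585, 643 and 783 CPM at day 7, against 1575, 1558, 1782 and 1286 CPM in naive cells (log2 fold change -1.20, SE 0.15 and edgeR adjusted p = 2.82e-08). It fell least of the 4, and under scaling to the STD entries its call was lost, at -0.46.

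The passenger strands of miR-181a separate its loci. miR-181a-2-3p, from the locus on chromosome 2 (chr2:38852735-38852810), stood at 5.46, 5.42, 21.97 and 0 CPM at day 7, against 1925, 1709.5, 1976 and 1286 CPM in naive cells (log2 fold change -7.51, SE 0.33 and edgeR adjusted p = 7.31e-17), on 6 counts at day 7 and 907 in naive cells. Without day 7 library 3, where it had most counts, the change was -8.54, and with loess offsets -8.13. miR-181a-1-3p, from the locus on chromosome 1 (chr1:137966455-137966541, in an intron of Gm4258), stood at 126, 135, 170.3 and 187 CPM at day 7, against 1328, 1282, 1215 and 812 CPM in naive cells (log2 fold change -2.96, SE 0.21 and edgeR adjusted p = 2.76e-13). In naive cells the chromosome 2 strand was the more abundant in every library, and at day 7 the chromosome 1 strand was. The difference between the loci was not tested. Other passenger strands of the family also fell: miR-181b-1-3p, also of the chromosome 1 cluster and named after its values were seen, at -3.16 ± 0.60, and miR-181d-3p, of the chromosome 8 cluster, at -2.95 ± 0.36 (log2 fold change ± SE, edgeR adjusted p = 3.02e-05 and 2.89e-08). With loess offsets miR-181b-1-3p stood at -3.82.

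Several other miRNAs were largely lost. miR-211-5p, from an intron of Trpm1 (chr7:64205806-64205911) and otherwise known from melanocytes, stood at 10.9, 21.7, 5.49 and 0 CPM at day 7, against 1997, 2104, 2061 and 1376 CPM in naive cells (log2 fold change -7.43, SE 0.34 and edgeR adjusted p = 2.03e-16). Without day 7 library 2 the change was -8.13, and with loess offsets -8.02. miR-139, from an intron of Pde2a, fell in both strands: miR-139-5p stood at 404, 304, 368 and 294 CPM at day 7, against 1089.8, 1124, 1277 and 789 CPM in naive cells (log2 fold change -1.67, SE 0.19 and edgeR adjusted p = 4.44e-09), and miR-139-3p fell, at -3.38 ± 0.34 (log2 fold change ± SE, edgeR adjusted p = 6.29e-10). miR-1249-3p stood at 32.7, 5.42, 16.5 and 0 CPM at day 7, against 215, 210.4, 170.3 and 248 CPM in naive cells (log2 fold change -3.71, SE 0.41 and edgeR adjusted p = 3.22e-09), and without day 7 library 1 its change was -4.58. The miR-200 miRNAs, known from epithelium, fell together. miR-200b-3p stood at 196, 173, 291 and 240.2 CPM at day 7, against 1472, 1387, 1544 and 1038 CPM in naive cells (log2 fold change -2.62, SE 0.20 and edgeR adjusted p = 1.65e-12). miR-200c-3p stood at 513, 526, 494 and 658 CPM at day 7, against 2060.2, 1841, 1890.3 and 1466 CPM in naive cells (log2 fold change -1.75, SE 0.14 and edgeR adjusted p = 3.61e-12). miR-200a-3p and miR-200b-5p fell, at -2.55 ± 0.21 and -3.28 ± 0.39 (log2 fold change ± SE, edgeR adjusted p = 1.07e-11 and 1.62e-08). Other markers of the list of epithelial, liver and muscle cells went the other way: miR-192-5p stood at 7428, 7669, 7464 and 6887 CPM at day 7, against 1814, 1913, 2583 and 1376 CPM in naive cells (log2 fold change 1.91, SE 0.14 and edgeR adjusted p = 1.20e-12), and miR-122-5p, the liver miRNA, and miR-194-5p rose by 0.85 ± 0.21 and 0.76 ± 0.22 (log2 fold change ± SE, edgeR adjusted p = 0.000635 and 0.00277). In all, 3 of 8 tested markers of that list rose and 3 fell, near the 39.8% and 34.3% of all tested miRNAs. The endothelial marker miR-126a rose in both strands, miR-126a-3p by 1.41 ± 0.27 and miR-126a-5p by 1.62 ± 0.28, and the red cell marker miR-486a-5p fell, at -2.24 ± 0.27 (log2 fold change ± SE, edgeR adjusted p = 3.18e-05, 7.85e-06 and 1.56e-08). The part that other cells may have in these results was not tested.

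let-7 guide strands, the most abundant family and a brake on proliferation, fell in 8 of 10 tested members and rose in 1, with a median of -0.63. Under scaling to the STD entries 1 was called lower and 4 higher, with a median of 0.16. let-7c-5p stood at 18339, 20563, 20189 and 22947 CPM at day 7, against 37759.9, 36636, 33402 and 66425 CPM in naive cells (log2 fold change -1.08, SE 0.16 and edgeR adjusted p = 9.09e-07). let-7a-5p stood at 30439, 32828, 24605 and 41169 CPM at day 7, against 57567, 51772, 50579.6 and 108400.0 CPM in naive cells (log2 fold change -1.05, SE 0.19 and edgeR adjusted p = 1.58e-05). let-7b-5p stood at 13116, 12428, 13247 and 12216 CPM at day 7, against 25072, 22960.2, 19630.1 and 33833 CPM in naive cells (log2 fold change -0.99, SE 0.14 and edgeR adjusted p = 3.97e-07). In each, every day 7 library was below every naive library, and naive library 4 was the highest. Under scaling to the STD entries none of the 3 was called, at -0.21 for let-7c-5p, -0.18 for let-7a-5p and -0.14 for let-7b-5p. let-7f-5p fell, at -0.70 ± 0.17, let-7g-5p at -0.52 ± 0.15 and let-7e-5p at -0.56 ± 0.19 (log2 fold change ± SE, edgeR adjusted p = 0.000625, 0.00243 and 0.0112), with groups that overlapped; all 3 were higher at day 7 under scaling to the STD entries, at 0.17, 0.34 and 0.15. Without day 7 library 3, let-7e-5p was not called, at -0.37, nor was it when scaled by library size, at -0.39, or with all locus entries, at -0.36. let-7g-5p was not called with all locus entries, at -0.37. let-7k fell, at -2.50 ± 0.53 (log2 fold change ± SE, edgeR adjusted p = 0.000134), on 7 counts at day 7 and 31 in naive cells. miR-98-5p, which shares the seed, was the member that rose. It was named after its values were seen, and stood at 13423 ± 453 CPM at day 7, against 10785 ± 399 CPM in naive cells (SD, n = 4 each). The sequences printed above are close to one another, so reads may be shared between let-7 members and their separate values are uncertain.

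Of 21 tested miRNAs that activated T cells are known to lose, 13 fell and 2 rose, with a median of -0.61, beside 34.3% and 39.8% of all tested miRNAs. Under scaling to the STD entries 4 were called lower and 6 higher, with a median of 0.12. This list was chosen with earlier results of these data known, so its count is no independent support. miR-150-5p, which restrains Myb, stood at 27022, 27755, 27329 and 23508 CPM at day 7, against 58481, 50069, 50756 and 83702 CPM in naive cells (log2 fold change -1.20, SE 0.15 and edgeR adjusted p = 4.98e-08). miR-26b-5p stood at 3569.5, 3230.2, 3987 and 4066 CPM at day 7, against 8082, 7265, 7278 and 10195 CPM in naive cells (log2 fold change -1.14, SE 0.13 and edgeR adjusted p = 5.02e-09). Its call was lost under scaling to the STD entries, at -0.32. miR-26a-5p fell, at -0.40 ± 0.15 (log2 fold change ± SE, edgeR adjusted p = 0.0196), but was not called without naive library 4, at -0.20, with loess offsets, at -0.03, with library size as the scaling, at -0.17, with all locus entries, at -0.25, or with only the compared groups fitted, at -0.50, and was higher, at 0.46, under scaling to the STD entries. In the miR-30 family miR-30a-5p stood at 218, 222, 247 and 196 CPM at day 7, against 891, 861, 879.9 and 361 CPM in naive cells (log2 fold change -1.83, SE 0.23 and edgeR adjusted p = 3.36e-08). miR-30d-5p and miR-30e-5p fell, at -0.87 ± 0.14 and -0.98 ± 0.18 (log2 fold change ± SE, edgeR adjusted p = 3.87e-06 and 2.80e-05). Both calls were lost under scaling to the STD entries, at -0.06 and -0.27. miR-30c-5p went the other way, at 14316, 16189, 15054 and 11816 CPM at day 7, against 6602, 7732, 7607 and 5594 CPM in naive cells (log2 fold change 1.05, SE 0.14 and edgeR adjusted p = 7.52e-08). miR-30b-5p was not called, at 2099.8 to 2636 CPM at day 7 and 1624 to 3304 CPM in naive cells. Of the miR-29 family, which targets Ifng and Tbx21, miR-29a-3p fell, at -0.61 ± 0.14 (log2 fold change ± SE, edgeR adjusted p = 0.000258), though it was higher, at 0.12, under scaling to the STD entries. miR-29b-3p was not called, at 311 to 489 CPM at day 7 and 180.4 to 409 CPM in naive cells, nor was miR-29c-3p, at 65.5 to 115 CPM at day 7 and 22.6 to 119 CPM in naive cells. The abundant miR-16-5p was not called, at 25898, 26351, 26011 and 26026 CPM at day 7, against 28389.5, 25459, 27941 and 27810.5 CPM in naive cells. miR-15b-5p was not called either, at 13507 to 15206 CPM at day 7 and 12089.5 to 15583 CPM in naive cells, while miR-15a-5p rose by 0.49 ± 0.20 (log2 fold change ± SE, edgeR adjusted p = 0.0262). That call ended without day 7 library 1 or 4, without naive library 1 or 2, without both libraries numbered 4, and with loess offsets.

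In the families of miR-99, miR-100 and miR-125, of which miR-125 is known from blood stem cells, 3 of 5 tested members fell and 1 rose. In the miR-10 family 1 of 2 fell. These small counts stand beside 34.3% lower and 39.8% higher of all tested miRNAs. miR-125a-5p stood at 2331, 3111, 3009.7 and 3185 CPM at day 7, against 10699, 10034, 11785 and 8345 CPM in naive cells (log2 fold change -1.82, SE 0.13 and edgeR adjusted p = 8.29e-13). miR-125b-5p, miR-99a-5p and miR-10a-5p fell, at -1.90 ± 0.35, -1.59 ± 0.29 and -1.03 ± 0.33 (log2 fold change ± SE, edgeR adjusted p = 2.14e-05, 1.48e-05 and 0.00625). The call of miR-10a-5p was lost under scaling to the STD entries, at -0.30, and miR-99a-5p stood at -2.21 with loess offsets. miR-99b-5p, which lies beside miR-125a in Spaca6, rose, at 9148, 11577, 11605 and 14468 CPM at day 7, against 9697, 7574, 7476 and 5210.2 CPM in naive cells (log2 fold change 0.63, SE 0.16 and edgeR adjusted p = 0.000695). Day 7 library 1 lay below naive library 1, so the groups overlapped.

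The cluster in an intron of Sfmbt2, a large array of related mouse miRNAs, fell in 19 of 20 tested members, 15 of them at least 2-fold, with a median of -1.72. miR-669c-5p, the most abundant, stood at 3449, 3263, 3515 and 3337 CPM at day 7, against 8217, 8396, 8634 and 8007 CPM in naive cells (log2 fold change -1.29, SE 0.11 and edgeR adjusted p = 2.64e-11). miR-467a-5p stood at 726, 639.5, 670.0 and 952 CPM at day 7, against 3007, 2722, 3491 and 2391 CPM in naive cells (log2 fold change -1.98, SE 0.15 and edgeR adjusted p = 1.49e-12). miR-467d-5p stood at 120.1, 81.3, 65.9 and 80.1 CPM at day 7, against 589, 664, 789 and 654 CPM in naive cells (log2 fold change -2.95, SE 0.20 and edgeR adjusted p = 8.48e-14). The groups did not overlap for any of the 3. miR-466g, miR-467b-5p, miR-467e-5p and miR-467c-5p fell, at -2.65 ± 0.21, -2.31 ± 0.21, -2.17 ± 0.15 and -2.09 ± 0.17 (log2 fold change ± SE, edgeR adjusted p = 2.69e-12, 3.97e-11, 2.83e-13 and 6.32e-12). Members of the array are near copies that may share reads, so the 19 calls cannot be taken as independent. Of the imprinted Dlk1-Dio3 cluster 17 of 29 members had counts, summing to 26.7 to 125 CPM at day 7 and 45.1 to 92.1 CPM in naive cells, and the only tested member, miR-127-3p, was not called.

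Of the 12 core T cell miRNAs, 4 rose and 6 fell, beside 39.8% and 34.3% of all tested miRNAs, with a median of -0.39. Under scaling to the STD entries 6 were called higher and 2 lower, with a median of 0.40. miR-155-5p, which promotes Th2 responses, was not called (log2 fold change 0.22, SE 0.12 and edgeR adjusted p = 0.11), at 12368, 13463, 12874 and 16229 CPM at day 7, against 12027, 10579, 11053 and 13623 CPM in naive cells. It passed when scaled by library size, at 0.41, with all locus entries, at 0.39, with loess offsets, at 0.24, with scaling to the STD entries, at 1.01, and without naive library 4, at 0.28. miR-146a-5p, which damps NF-kB signals, stood at 9093, 9593, 8315 and 8586 CPM at day 7, against 12616, 12881, 13426 and 15383 CPM in naive cells (log2 fold change -0.61, SE 0.12 and edgeR adjusted p = 5.73e-05), and its direction turned to 0.19 under scaling to the STD entries. miR-146b-5p, with the same seed, rose by 0.64 ± 0.21 (log2 fold change ± SE, edgeR adjusted p = 0.00637), a call that ended without day 7 library 1, at 0.47, or naive library 1, at 0.49. miR-142a is specific to blood cells. Of its strands miR-142a-3p fell, at -0.87 ± 0.20 (log2 fold change ± SE, edgeR adjusted p = 0.000249), a call lost under scaling to the STD entries, at -0.14, and miR-142a-5p was not called, at 7367 to 10084 CPM at day 7 and 5729 to 12427 CPM in naive cells. Of 18 tested regulators of Th2 differentiation, 13 rose and 3 fell, with a median of 1.20, and 15 were called higher and 0 lower under scaling to the STD entries. Of 22 tested miRNAs known to be induced by activation, 15 rose and 1 fell, with a median of 1.28, and 19 were called higher and 0 lower under that scaling. Both counts stand beside 39.8% higher and 34.3% lower of all tested miRNAs. These lists share members, miR-21a-5p and miR-182-5p among them, and were chosen with earlier results of these data known. Their counts are therefore no independent support. Among 5 tested Drosha-independent miRNAs, miR-877-5p, a mirtron of Abcf1, rose by 2.01 ± 0.28 and miR-484 fell, at -0.75 ± 0.11 (log2 fold change ± SE, edgeR adjusted p = 3.21e-07 and 4.02e-07); the fall of miR-484 was gone under scaling to the STD entries.

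The letters of some entries with large changes also occur in annotated transcripts other than miRNAs. Only transcripts of the GENCODE annotation were searched, so an entry without a match there may still match other RNAs. For a miRNA in an exon these can be those of its host gene, as for both strands of miR-21a in Vmp1. miR-5121, in an exon of Rpl13a, stood at 5005, 4992, 4136 and 1993 CPM at day 7, against 199, 184, 159 and 338 CPM in naive cells (log2 fold change 4.34, SE 0.26 and edgeR adjusted p = 9.64e-15), and its letters occur in the small nucleolar RNA Snord33. miR-12188-5p lies in an exon of Clcn7, and its letters occur in transcripts of this host gene. It had 95 counts at day 7 and 1 in naive cells, a ratio of 71.5 with an exact 95% counting interval of 12.5 to 2853. Its fitted log2 fold change was 5.77, and 7.94 without naive library 3. Of the other entries with large changes, miR-6240 and miR-6538 rose by 4.35 ± 0.29 and 6.06 ± 0.42 (log2 fold change ± SE, edgeR adjusted p = 1.08e-13 and 2.75e-13), and without both libraries numbered 4 by 5.04 and 7.30. Without naive library 4 alone miR-6538 rose by 7.04. miR-5100 fell, at -3.10 ± 0.18 (log2 fold change ± SE, edgeR adjusted p = 9.64e-15). miR-1968-5p, from an intron of Grtp1, had 123 counts at day 7, at 142, 168, 209 and 249 CPM, and 0 in naive cells, so that it was at least 2.84-fold higher against the naive library with the highest floor of 3 counts. In all, 909 miRNA names had a count in any of the 8 libraries, 222 of them only at day 7 and 86 only in naive cells. The day 7 libraries held a mean of 172294 miRNA counts and the naive libraries 143644, and the part of depth in these numbers was not tested. Of the names with no count in naive cells, 16 had counts in all 4 day 7 libraries, miR-124-3p with 35 and miR-210-5p with 22 counts among them. In the other direction there were 2, miR-1247-5p with 24 and miR-3971 with 7 counts. These 4 were named after their values were seen.

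Summed by seed over miRNAs with a matched sequence, the pool shifted from let-7 and miR-181 towards miR-21, miR-27 and the miR-17 and miR-25 seeds. A single RefSeq sequence was matched to 306 of the 382 tested miRNAs. All names with such a sequence, tested or not, carried 84.0% to 88.4% of the miRNA counts of a library. Abundant miRNAs without one, miR-150-5p and miR-30d-5p among them, are in no seed sum here. miR-150-5p fell from a mean of 60752 CPM in naive cells to 26403.5 CPM at day 7. The let-7 seed (GAGGUAG) held 19.6% ± 1.54 of miRNA counts at day 7, against 26.1% ± 4.43 in naive cells (SD, n = 4 each here and below; in WT cells 17.9% ± 0.888 at day 7 and 21.7% ± 1.56 naive). The miR-181 seed (ACAUUCA) held 0.768% ± 0.0664 at day 7, against 5.98% ± 0.764 in naive cells (in WT cells 1.09% ± 0.0148 at day 7 and 5.53% ± 0.116 naive). The miR-21 seed (AGCUUAU) held 3.62% ± 0.343 at day 7, against 0.815% ± 0.181 in naive cells (in WT cells 2.85% ± 0.316 at day 7 and 0.879% ± 0.103 naive). For the let-7, miR-181 and miR-21 seeds the groups did not overlap. The miR-27 seed (UCACAGU) held 3.88% ± 0.136 at day 7, against 2.29% ± 0.0908 in naive cells. The seed of miR-17, miR-20, miR-93 and miR-106 (AAAGUGC) held 2.39% ± 0.0804 at day 7, against 1.56% ± 0.0922 in naive cells. The seed of miR-25, miR-92 and miR-363 (AUUGCAC) held 5.2% ± 0.253 at day 7, against 3.94% ± 0.5 in naive cells. These 3 seeds were higher in all 4 day 7 libraries than in any naive library. The seeds of miR-15 and miR-16, miR-26 and miR-191 overlapped between the groups. The miR-3963 seed held 0.878% ± 0.142 at day 7, against 2.95% ± 0.0904 in naive cells, with no overlap. These shares are descriptions of relative abundance, with no test.

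**Figure D3:**
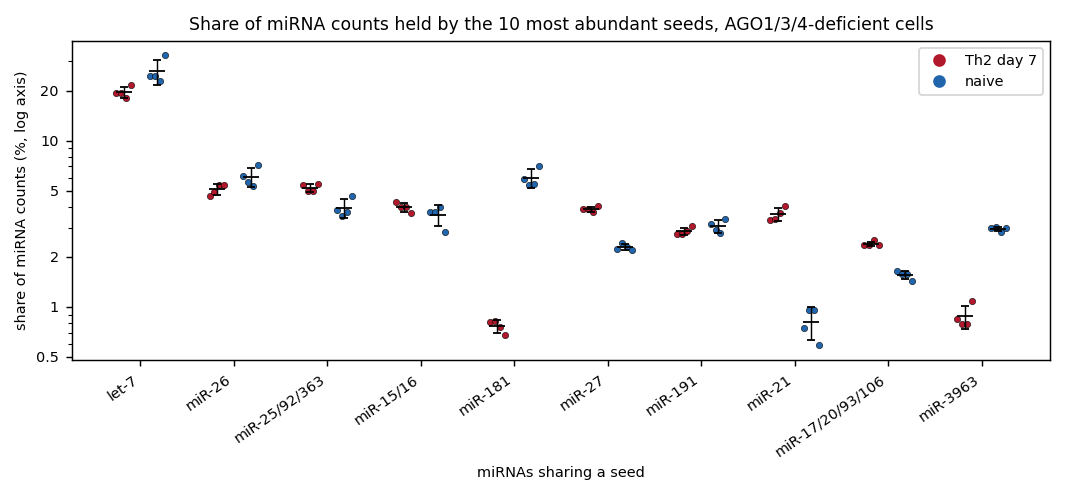
Share of miRNA counts (%, log axis) held by the miRNAs of each of 10 seeds in AGO1/3/4-deficient cells, Th2 day 7 left of naive, 4 libraries each, with the mean and SD. The seeds are the 10 most abundant among miRNAs with a matched sequence, which leaves out miR-150-5p and miR-30d-5p. The miR-181 seed held 0.680% to 0.825% at day 7 against 5.45% to 7.08% in naive cells, and the miR-21 seed 3.33% to 4.07% at day 7 against 0.587% to 0.962% in naive cells.

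Members of a seed did not always move together. Of 34 seeds with 2 or more tested members, 8 had members called in both directions. The seed CCCUGAG is shared by miR-351-5p, which rose, and by miR-125a-5p and miR-125b-5p, which fell, and its summed share was 0.477% to 0.571% at day 7 and 0.636% to 1.15% in naive cells. Under the seed GUAAACA, miR-30c-5p rose where miR-30a-5p and miR-30e-5p fell. miR-30b-5p and miR-30d-5p had no sequence matched and stand outside this sum. The other 3 summed to 1.29% to 1.74% at day 7 and 0.604% to 1.19% in naive cells, and miR-30c-5p was the most abundant of them. miR-30d-5p, which fell, was more abundant in naive cells, at a mean of 30333 CPM against 6884 CPM for miR-30c-5p. All 5 members of the miR-30 family summed to 34746 to 37067 CPM at day 7 and 39896 to 47839 CPM in naive cells. The higher sum at day 7 thus holds for the matched members only. The seed ACCCGUA joined miR-99b-5p, which rose, and miR-99a-5p, which fell, and its summed share was 0.927% to 1.30% at day 7 and 0.370% to 0.851% in naive cells. The miR-146 seed GAGAACU joined miR-146b-5p, which rose, and the more abundant miR-146a-5p, which fell, with a summed share of 0.788% to 0.964% at day 7 and 1.07% to 1.24% in naive cells. In each of these 4 seeds the sum moved with the member that was most abundant in naive cells. This did not hold for AUUGCAC, another of the 8, where miR-363-3p rose and miR-92b-3p fell. Its most abundant member in naive cells, miR-25-3p, was not called, at -0.27. Its summed share was nonetheless higher at day 7, at 4.95% to 5.46%, against 3.52% to 4.67% in naive cells.

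The strands of a hairpin often changed unequally. The ratio of 5p to 3p counts was tested for 94 hairpins whose strands both passed the filter, with limma on log2 ratios after adding 0.5 counts to each strand. It changed for 42 (44.7%), towards 5p in 24 (25.5%) and towards 3p in 18 (19.1%). For miR-18a the ratio was 14.5, 12.8, 14.2 and 13.4 at day 7, against 5.56, 4.29, 6.14 and 6.08 in naive cells (difference 1.32 with SE 0.19, limma adjusted p = 1.11e-05). For miR-450b it was 1.68, 2.2, 2.18 and 1.63 at day 7, against 0.36, 0.6, 0.314 and 0.143 in naive cells (difference 2.60 with SE 0.34, limma adjusted p = 5.39e-06). The more abundant strand of miR-450b was thus the 5p strand in every day 7 library and the 3p strand in every naive library. For miR-18b it was 4.33, 2.51, 3.59 and 5.62 at day 7, against 0.152, 0.405, 0.697 and 1.4 in naive cells (difference 2.96 with SE 0.48, limma adjusted p = 4.26e-05). miR-3061 and miR-700 also moved towards 5p (difference 2.13 with SE 0.37, limma adjusted p = 0.000106 for miR-3061, and difference 2.15 with SE 0.31, limma adjusted p = 1.24e-05 for miR-700). Ratios moved towards 3p for miR-181c, at 1.89, 2.57, 1.85 and 2.44 at day 7, against 9.68, 8.13, 10.2 and 8.47 in naive cells (difference -2.07 with SE 0.16, limma adjusted p = 2.39e-09). miR-181c-5p fell by far more than miR-181c-3p, whose log2 fold change was -0.52, a fall that lost its call or its sign in 10 alternatives, with 0.23 under scaling to the STD entries. For miR-125a the ratio was 17.4, 13.2, 15.9 and 14.1 at day 7, against 81.5, 47.0, 60.2 and 32.2 in naive cells (difference -1.79 with SE 0.24, limma adjusted p = 6.70e-06). For miR-21a it was 43.0, 28.9, 39.4 and 50.4 at day 7, against 171, 355, 139 and 251 in naive cells (difference -2.44 with SE 0.35, limma adjusted p = 1.24e-05). The 5p strand of miR-21a remained the more abundant in every library. miR-1839 and miR-23b moved towards 3p as well (difference -2.77 with SE 0.36, limma adjusted p = 5.39e-06 for miR-1839, and difference -2.85 with SE 0.43, limma adjusted p = 1.82e-05 for miR-23b). The strands were called in opposite directions for 3 of the 42, miR-23b, miR-700 and miR-674. The fall of miR-700-3p was not firm: its log2 fold change of -0.42 lost its call or its sign in 7 alternatives, among them library size as the scaling, no filter, and without naive library 3 or day 7 library 4. It was 0.34 under scaling to the STD entries. The more abundant strand differed between the groups for 6, among them miR-450b, miR-18b and miR-3061. The letters of miR-1839-5p also occur in the transcript annotated as a small Cajal body RNA of that name. Those of both miR-3061 strands occur in its host gene Ppp2ca, as the hairpin lies in an exon.

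**Figure D4:**
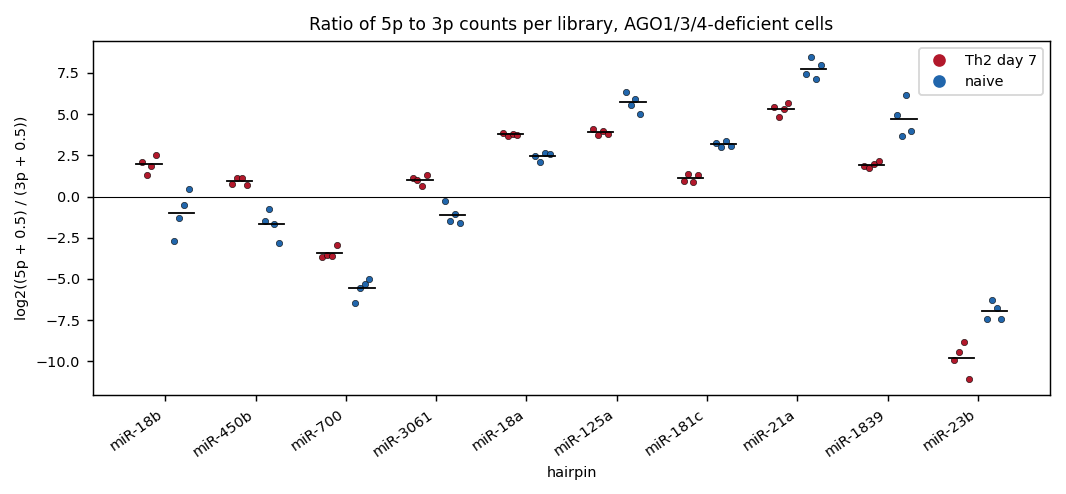
Log2 ratio of 5p to 3p counts (0.5 added to each) in each AGO1/3/4-deficient library for 10 hairpins, Th2 day 7 left of naive, 4 libraries each, with lines at the means. Points above 0 have more 5p than 3p counts; miR-450b lies above 0 in all day 7 libraries and below 0 in all naive libraries.

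The changes of AGO1/3/4-deficient cells were set against those of WT cells, which addresses whether the change depends on genotype. In WT cells 292 of the 382 miRNAs were called (76.4%), 151 higher at day 7 (39.5%) and 141 lower (36.9%). Of these, 261 were called in the same direction in both genotypes, 92.2% of the knockout calls and 89.4% of the WT calls, and none in opposite directions. Of the 22 called in knockout cells only, 20 had the same sign in WT cells. The changes correlated across the 382 miRNAs with Pearson r = 0.948, a description over miRNAs that share libraries. The median change of all tested miRNAs was 0.08 in knockout and 0.11 in WT cells.

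**Figure D5:**
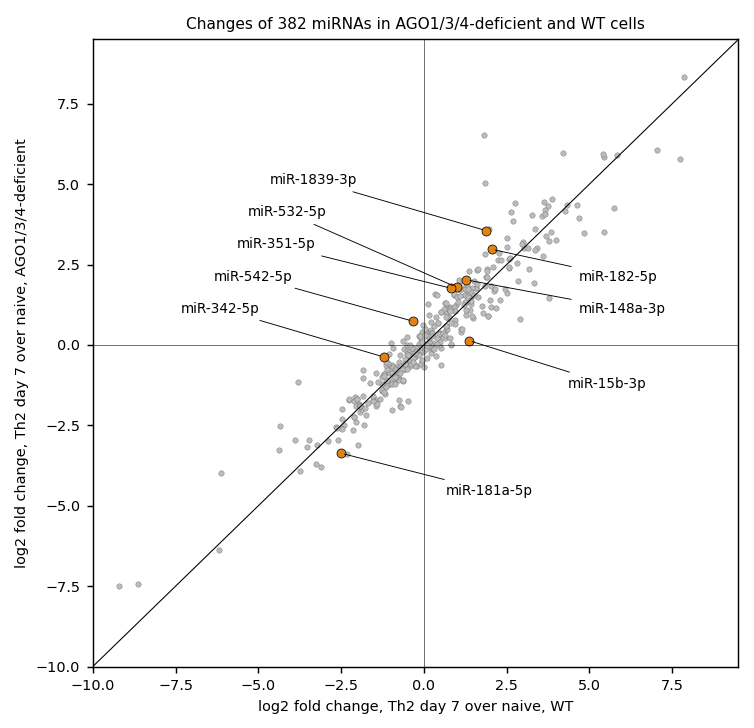
Log2 fold change, Th2 day 7 over naive, of 382 miRNAs in AGO1/3/4-deficient cells (vertical axis) and in WT cells (horizontal axis), with the line of equal change. Orange points are the 9 miRNAs whose change differed between the genotypes at an edgeR adjusted p under 0.05; miR-182-5p changed by 2.97 in knockout and 2.05 in WT cells.

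The difference between the genotypes' changes was called for 9 of 382 miRNAs (2.36%), 7 with a higher (1.83%) and 2 with a lower change in knockout cells (0.524%), and 45 had an unadjusted p under 0.05. miR-182-5p gained more in knockout cells (difference 0.93 with SE 0.17, edgeR adjusted p = 0.00225). It stood at 31424 ± 1861 CPM in knockout and 21177 ± 2206 CPM in WT cells at day 7, and at 3979 ± 555 and 5125 ± 613 CPM in naive knockout and WT cells (SD, n = 4 each here and below). This call held in all 26 alternatives, with adjusted p from 5.51e-05 to 0.0273. miR-351-5p also gained more in knockout cells (difference 0.94 with SE 0.18, edgeR adjusted p = 0.00389). It stood at 2748 ± 318 CPM in knockout and 2781 ± 155 CPM in WT cells at day 7, and at 803 ± 56.5 and 1569.6 ± 268 CPM in naive knockout and WT cells. The genotypes' means differed mainly in naive cells. Of the 26 alternatives, the call ended only under scaling to the STD entries, where the difference was 1.06, over a range of adjusted p from 0.000455 to 0.184. miR-15b-3p, the passenger strand of miR-15b, rose in WT but was not called in knockout cells (difference -1.22 with SE 0.26, edgeR adjusted p = 0.00644). It stood at 1482 ± 407 CPM in knockout and 2972 ± 194 CPM in WT cells at day 7, and at 1322 ± 354 and 1159 ± 169.9 CPM in naive knockout and WT cells. This call ended when scaled by library size alone and under scaling to the STD entries, though the difference was of like size, at -1.22 and -1.08, over a range of adjusted p from 4.60e-05 to 0.397.

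The other 6 differences were less firm, each lost in 9 to 18 of the 26 alternatives. miR-181a-5p fell further in knockout cells, to 5974 ± 495 CPM at day 7, against 7073 ± 537 CPM in WT cells, with 61775 ± 21682 and 40149.7 ± 4485 CPM in naive knockout and WT cells (difference -0.86 with SE 0.22, edgeR adjusted p = 0.031; 0.0023 to 0.311 over the alternatives). The naive knockout level was highest in library 4, and the call was lost without both libraries numbered 4. miR-542-5p, of the miR-322 and miR-503 cluster, differed by 1.05 (edgeR adjusted p = 0.0306; 0.00748 to 0.311). miR-1839-3p differed by 1.68 (edgeR adjusted p = 0.0306; 0.00945 to 0.184), and by 2.33 without naive knockout library 2. miR-532-5p differed by 0.81 (edgeR adjusted p = 0.031; 0.00748 to 0.346). miR-148a-3p differed by 0.73 (edgeR adjusted p = 0.0324; 0.014 to 0.397). miR-342-5p, named after its values were seen and whose level was 1289.8 ± 117 CPM in knockout and 1311 ± 205 CPM in WT cells at day 7, differed by 0.85 (edgeR adjusted p = 0.0415; 0.00748 to 0.397). The number called moved between 3 and 15 when single libraries were left out, with 15 without naive WT library 3, 3 without naive WT library 1 or day 7 WT library 3, 4 without naive WT library 2 or day 7 WT library 4, and 5 without naive knockout library 2. With 1 call under scaling to the STD entries and 14 with DESeq2, the number of differences is uncertain.

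Levels on days 0, 7 and 14 in knockout cells (4, 4 and 3 libraries) were set side by side without a test. miR-183-5p stood at 942 ± 112, 21861 ± 3933 and 26060.4 ± 3073 CPM. miR-182-5p stood at 3979 ± 555, 31424 ± 1861 and 42132 ± 6107 CPM, and miR-96-5p at 134.1 ± 40.1, 1284 ± 214 and 3410.2 ± 629.8 CPM, so that the cluster was at its highest mean on day 14. miR-181a-5p stood at 61775 ± 21682, 5974 ± 495 and 3622 ± 386 CPM. miR-125a-5p stood at 10216 ± 1441, 2909 ± 392 and 9477 ± 2078 CPM, near its naive level again on day 14. miR-212-5p stood at 376 ± 118, 1486 ± 354 and 467 ± 143 CPM, high on day 7 alone. miR-211-5p and miR-181a-2-3p had no count in the 3 day 14 libraries, which allows 3 counts in each.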

How the data were processed

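Small RNA was sequenced in 36 libraries, 22 of them in the AGO1/3/4 experiment. The authors deposited whole-number counts, 1 entry per mature miRNA and locus, per the file headers. The submitters' processing notes name the build GRCm38. Sample labels name single-end reads and the series text paired-end reads. No source used here gives the aligner, the counter, strand use or any molecular identifiers. Files had 2119 entries. The 9 called STD, which are no miRNAs, took 40.5% to 56.9% of all deposited counts of the 8 libraries, every locus included, and were left out. For a name with several loci the entry with the highest total was kept, which gave 1966 names.

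Counts of the 22 libraries were fitted with edgeR 4.0.16 in R 4.3.3 (quasi-likelihood test, TMM, filterByExpr at its minimum of 10 counts, a mean per group, Benjamini-Hochberg over all 382 miRNAs), and called at an adjusted p under 0.05. SEs are those implied by the test. Strand ratios were tested with limma 3.58.1 on log2 ratios. Levels are CPM of TMM-scaled library size. A count of 0 allows 3 counts, which is 16.3 to 26.7 CPM per library at day 7 and 17.0 to 67.7 CPM in naive cells; floors and intervals cover counting error only. On simulated data the main test recovered 86.6% of 2-fold and 100% of 4-fold changes over 367 miRNAs and called 2.31% of unchanged ones; for the difference between genotypes these were 70.1%, 94.9% and 2.89%. Recovery where few miRNAs differ was not tested. The difference between genotypes was called for only 9 of 382 miRNAs, so the 70.1% and 94.9% may not carry over to it. Sequences and hairpin positions are from RefSeq, and host genes from GENCODE M21 on the same build.

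Named miRNAs are the 10 largest called increases and decreases with a mean of at least 100 CPM, the core markers, members of lists of up to 6 tested, of longer lists up to 6 called members with the largest change and the most abundant, and the calls with the smallest p for differences and strand ratios; others are marked as named after their values were seen. The members and lists were chosen with earlier results of these data known. Alternatives were DESeq2 1.42.0, other scalings, no filter, all locus entries, only the groups compared, a replicate block and single libraries left out; leaving out both libraries numbered 4 was chosen after seeing the data.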

Additional observations from a re-analysis of the deposited data

Results flagged for a closer look

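In groups of 4 libraries the highest or lowest value was compared with the others by Dixon's ratio at its 95% critical value, for 251 groups of the named miRNAs in knockout cells. Of these, 16 passed, and chance flags about 1 in 20 groups. Library 4 held 10 of the 16, with 7 in naive cells and 3 at day 7. At day 7 library 4 stood apart for miR-5100 at 222 CPM and miR-27a-5p at 285 CPM (high), and for miR-700-3p at 1575 CPM (low). In naive cells library 4 was high for miR-6538 at 135 CPM, miR-6240 at 677 CPM, let-7c-5p at 66425 CPM, let-7a-5p at 108400 CPM and miR-92a-3p at 8594 CPM. It was low for miR-211-5p at 1376 CPM and miR-30a-5p at 361 CPM. Outside library 4, day 7 library 3 was high for miR-181d-3p at 33.0 CPM and miR-125b-5p at 60.4 CPM. In naive cells library 1 was high for let-7k at 95.5 CPM, library 2 for miR-221-5p at 46.0 CPM, and library 3 for miR-12188-5p at 5.68 CPM and miR-96-3p at 11.4 CPM. The values of miR-12188-5p and miR-96-3p are those of 1 and 2 counts against 0 in the other naive libraries.

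The change from naive to day 7 differed between knockout and WT cells, by the test of the difference itself, for 9 miRNAs. The difference in log2 fold change, knockout minus WT, was 1.68 for miR-1839-3p, 1.05 for miR-542-5p, 0.94 for miR-351-5p, 0.93 for miR-182-5p, 0.85 for miR-342-5p, 0.81 for miR-532-5p and 0.73 for miR-148a-3p. It was -0.86 for miR-181a-5p and -1.22 for miR-15b-3p.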

How the results depend on the processing

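The activation calls stayed between 264 and 292 of the 382 miRNAs under the scalings tried, DESeq2 and the replicate block, with 312 of 1211 called without a filter, 359 of 474 with all locus entries and 219 of 291 with only the compared groups fitted. Scaling to the STD entries gave 59 lower calls. Library size as the only scaling gave 3 calls for the difference from WT (2 higher, 1 lower), the STD entries gave 1 (1 higher, 0 lower), and DESeq2 gave 14. The number with a lower change in knockout cells was 4 with DESeq2, DESeq2 size factors, loess offsets, no filter or only the compared groups, and 1 with all locus entries or without both libraries numbered 4. Leaving out single libraries gave 269 to 281 activation calls (143 to 154 higher, 119 to 132 lower, 201 to 211 of at least 2-fold), 3 to 15 differences from WT (2 to 11 higher, 1 to 4 lower) and 37 to 45 strand ratios (20 to 25 higher, 17 to 20 lower). The direction turned under scaling to the STD entries for let-7g-5p (0.34), miR-146a-5p (0.19), miR-29a-3p (0.12), miR-26a-5p (0.46), let-7f-5p (0.17), let-7e-5p (0.15), miR-342-5p (0.37), miR-700-3p (0.34) and miR-181c-3p (0.23). It turned with loess offsets for miR-92a-3p (-0.012) and miR-15b-3p (-0.021). Without single libraries miR-92a-3p ranged from -0.053 (without naive library 2) to 1.05 (without naive library 4), and was below 0 also without naive library 1 or 3, at -0.032 and -0.026. miR-15b-3p ranged from -0.033 (without day 7 library 1) to 0.31 (without naive library 3). The cause was not tested. Shallow libraries limit what can be said of miRNAs below 67.7 CPM, the floor of naive library 4.

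Whether replicate numbers pair the samples could not be decided, as the labels do not say what a number marks. Same-numbered knockout libraries correlated by 0.0278, 0.0757, 0.0144 and 0.100 in their deviations from group means. Knockout libraries 3 and 4 matched their own number best, while knockout libraries 1 and 2 and all WT libraries did not. Weak correlations in such small groups cannot exclude pairing. A fit with the replicate block gave 279 activation calls, 5 differences from WT (4 higher, 1 lower) and 46 strand ratios.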
